A study of Mus musculus with 2 samples.

Results

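The genes described here carry glucose carbon through glycolysis, to lactate or into the mitochondrion, and through the pentose phosphate pathway. They form a list of 32 mouse genes, given by symbol. A probe set was taken for a gene where the platform annotation ties it to that 1 gene only. This gave 65 probe sets for 30 of the 32 genes, out of 34958 single-gene probe sets for 18194 genes in all. Gpi1 and G6pdx had no such probe set, so their expression is not analysed here. Of the 30 genes, 29 passed a filter on low signal, as did 11365 of all genes. The study profiled RNA of whole ovaries from immature wild type CD-1 mice, 24 to 28 days old, on Affymetrix expression arrays. All mice had received 5 IU of pregnant mare serum gonadotropin, which grows follicles, and 48 h later 5 IU of human chorionic gonadotropin (hCG), which starts ovulation. At 2 h after hCG they were given oil vehicle or ulipristal acetate, a synthetic modulator of the progesterone receptor that the labels also call CDB, and ovaries were taken at 11 h (after which injection is not stated). There was 1 array per treatment, and neither the dose of ulipristal nor the number of mice behind an array is given in the sources used here. Every difference is therefore between these 2 samples, with no spread between animals and no test.

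Glycolysis splits glucose into pyruvate and yields ATP without oxygen. Lactate dehydrogenase turns pyruvate into lactate, pyruvate dehydrogenase passes it to the mitochondrial citric acid cycle, and the pentose phosphate pathway draws off glucose 6-phosphate to make NADPH and ribose. In the ovarian follicle, granulosa and cumulus cells are known for active glycolysis, and they supply pyruvate to the oocyte, which uses glucose poorly by itself. Gonadotropins are known to raise glucose uptake and lactate output of follicles. Many of these genes have binding sites for the hypoxia-inducible factor HIF1 in their control regions.

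After ulipristal the message for the main glucose transporter was lower, that for 1 phosphofructokinase isoform was higher, and most other genes of the list lay close to their vehicle level. Values are MAS5 signals in arbitrary units, and the log2 ratio is ulipristal over vehicle for a gene's brightest probe set. Of the 29 measured genes, 1 (Pfkl) was at least 2-fold higher and 1 (Slc2a1) at least 2-fold lower. Over all measured genes the same calls took in 3.34% as higher and 1.56% as lower, so the list's shares of 3.45% and 3.45% rest on 1 gene each and are read as near that background. Of all genes past 2-fold 68.2% were higher, and 57.3% with quantile normalization or 56.2% with lowess centring. The majority turned to the lower side with the filter at the 75th percentile (36.5% higher) and with 50 added to every signal (35.5%). Neither call held with 50 added to every signal or when the median of several probe sets stood for a gene, and Pkm, just under 2-fold, passed it with quantile normalization and with lowess centring. At 1.5-fold, 4 of the 29 were higher (Pfkl, Pkm, Aldoc and the dim Pdk2) against 12.3% of all genes, and 1 was lower against 4.58%. The other 24 (82.8%) differed by less than 1.5-fold, as did 83.1% of all measured genes. The median log2 ratio was 0.13 over the list and 0.09 over all measured genes, and 19 members lay above 0 (65.5%, against 60% of all genes). In whole ovaries, fewer cells of a type and less RNA per cell cannot be told apart.

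**Figure D1:**
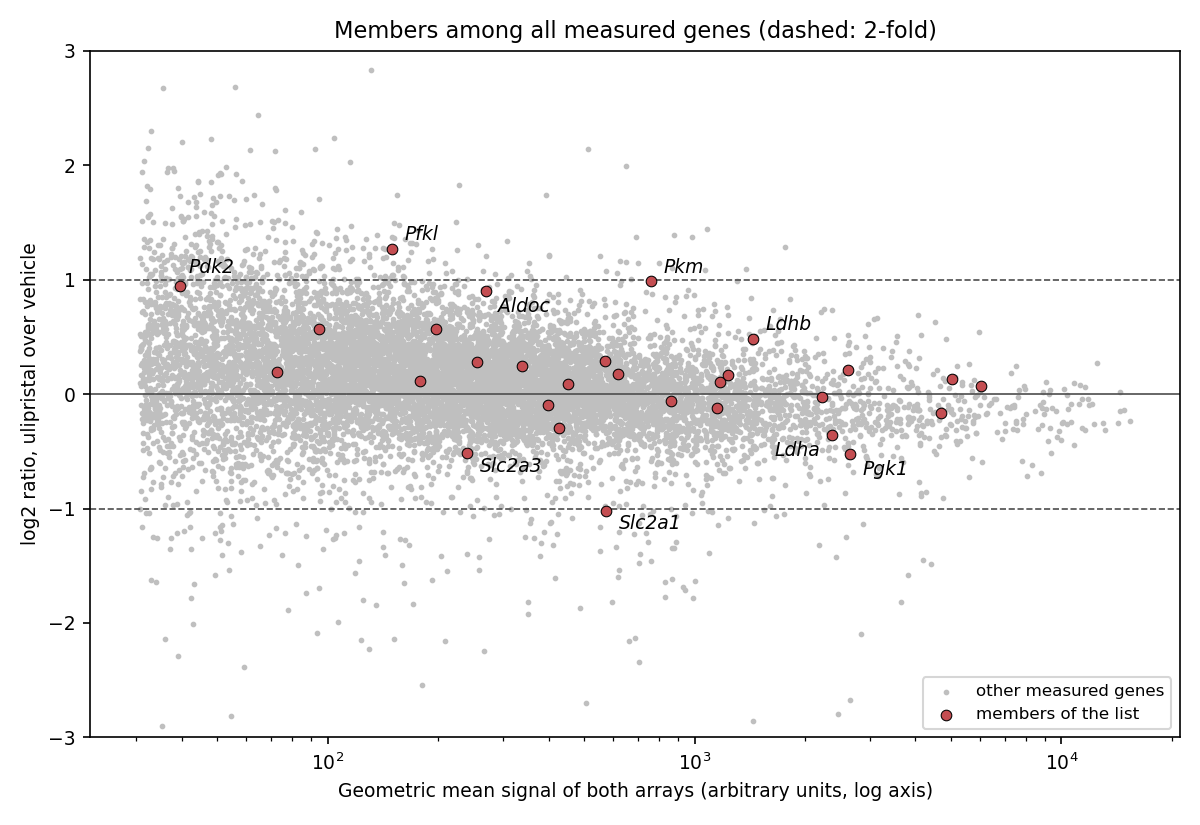
Each point is 1 measured gene, with the geometric mean of its signal on both arrays on the x axis (arbitrary units, log scale) and its log2 ratio of ulipristal over vehicle on the y axis; 9 other genes lie outside the drawn range. Members of the list are red and run from -1.02 (Slc2a1) to 1.27 (Pfkl), with most near the centre of the grey points at their signal.

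The only error these arrays offer is that between probe sets of the same gene, which share the RNA sample and so cover measurement differences alone. Of the 13 members with more than 1 measured probe set, 8 had all probe sets on the same side of 0 (61.5%, against 51.5% of 4957 such genes in all). The log2 ratios of a gene's pair of brightest probe sets differed by a median of 0.24 in the list and 0.29 over all genes, and by up to 0.78 and 0.77 at the 90th percentile. A log2 ratio below 0.29 is thus smaller than the typical gap between probe sets for the same message. Of the 65 member probe sets, 11 were below the filter, including 1 each of Pdk1 (2.86 and 1.60), Slc16a1 (1.22 and 1.89) and Tkt (22.6 and 32.3). The other 16 measured members had 1 measured probe set and no such check.

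**Figure D2:**
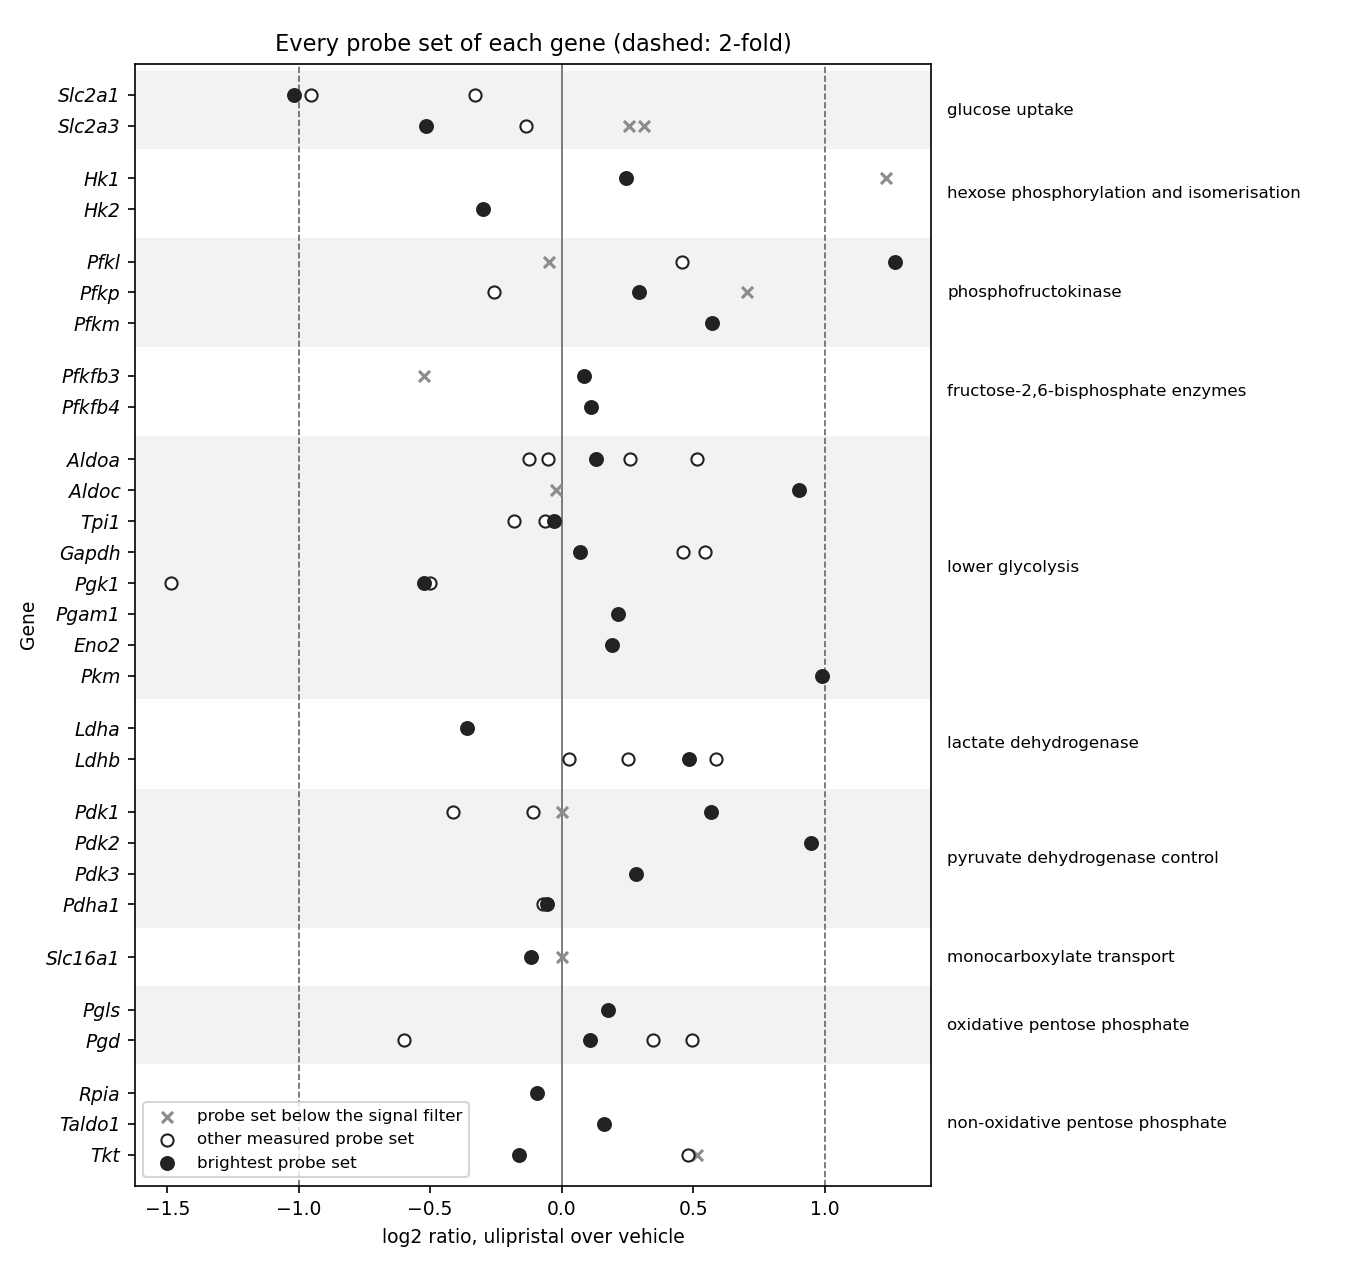
Log2 ratios of ulipristal over vehicle (x axis) for every probe set of each measured gene (y axis, in pathway order), with filled points for the brightest probe set, open points for other measured ones and crosses for those below the signal filter. The measured probe sets past 2-fold are the brightest of Slc2a1 and Pfkl and 1 of Pgk1, at -1.02, 1.27 and -1.49.

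The promoters of 5 genes are printed as examples from both directions, chosen after their values were seen: a transporter, 3 enzymes of glycolysis and a lactate dehydrogenase subunit. Each run holds the 250 bases before the annotated start, 5′ to 3′ in the direction of the gene, from RefSeq (GRCm38.p6), at the start farthest upstream where RefSeq lists several. Capitals mark ACGTG or GCGTG on either strand (CACGT and CACGC when read from the other strand), the core of the HIF1 site. Slc2a1, Pgk1 and Ldha had lower signals after ulipristal, and Pfkl and Pkm had higher ones. The regions are chr4:119108495-119108744 (+ strand) for Slc2a1, chrX:106186850-106187099 (+) for Pgk1, chr7:46845554-46845803 (+) for Ldha, chr10:78009808-78010057 (- strand) for Pfkl and chr9:59656326-59656575 (+) for Pkm.
Slc2a1: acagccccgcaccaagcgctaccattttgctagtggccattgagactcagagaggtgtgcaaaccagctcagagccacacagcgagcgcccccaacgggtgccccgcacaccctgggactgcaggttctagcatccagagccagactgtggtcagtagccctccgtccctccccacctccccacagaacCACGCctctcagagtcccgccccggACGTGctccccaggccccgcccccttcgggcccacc
Pgk1: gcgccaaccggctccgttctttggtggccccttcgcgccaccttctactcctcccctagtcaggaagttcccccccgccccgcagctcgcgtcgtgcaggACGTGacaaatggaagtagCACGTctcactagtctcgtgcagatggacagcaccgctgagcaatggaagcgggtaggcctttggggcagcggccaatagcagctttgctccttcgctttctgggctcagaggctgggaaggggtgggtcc
Ldha: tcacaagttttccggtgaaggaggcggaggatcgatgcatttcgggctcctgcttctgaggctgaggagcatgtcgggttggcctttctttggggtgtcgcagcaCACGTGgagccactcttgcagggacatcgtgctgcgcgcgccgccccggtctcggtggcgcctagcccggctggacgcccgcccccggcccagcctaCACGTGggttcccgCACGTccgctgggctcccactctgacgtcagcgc
Pfkl: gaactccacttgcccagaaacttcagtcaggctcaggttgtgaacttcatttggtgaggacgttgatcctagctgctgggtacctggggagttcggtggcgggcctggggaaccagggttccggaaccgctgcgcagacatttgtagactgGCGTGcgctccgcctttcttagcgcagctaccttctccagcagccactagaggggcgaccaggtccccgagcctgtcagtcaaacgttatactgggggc
Pkm: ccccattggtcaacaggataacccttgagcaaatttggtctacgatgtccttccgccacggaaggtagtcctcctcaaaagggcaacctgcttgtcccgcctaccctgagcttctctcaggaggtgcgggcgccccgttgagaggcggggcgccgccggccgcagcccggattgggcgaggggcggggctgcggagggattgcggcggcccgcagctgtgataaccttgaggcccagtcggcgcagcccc

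These windows held 2 matches to the core in Slc2a1, 2 in Pgk1, 5 in Ldha, 1 in Pfkl and 0 in Pkm. The other listed start of Pkm, not printed, did hold the core. Aldoc, Pfkm and Ldhb, which had higher signals after ulipristal and are not printed, held 1, 2 and 1. Apart from Ldha, the genes with 3 or more matches lay on both sides. Pdk3 (4), Pfkp (3) and Pgam1 (3) were higher on their brightest probe sets, and Slc16a1 (4) and Pdha1 (3) were lower. The count for Ldha includes 2 copies of the palindrome CACGTG, each of which matches on both strands. Both matches of Pfkm, and 2 of those of Slc16a1, come from 1 such palindrome each. Promoters of the 31 list genes found in the RefSeq promoter table were searched (Slc2a3 was not matched, and Gpi1 and G6pdx are included), with every listed start used: 34 of 44 member promoters held the core (77.3%), against 38.6% of 32851 promoters of all genes. The GC-rich motif GGGCGG, searched on both strands, was also more frequent, in 54.5% of member promoters and 32.7% of all, so the windows also differ in base composition. Members with and without a match lay on both sides of 0. At their farthest upstream start, 23 measured members held the core and had a median log2 ratio of 0.11, with 15 above 0 and 8 below. The 5 without it there had a median of 0.19, with 4 above 0 and 1 below. Of these 5, Hk1, Aldoa and Pkm held the core at another listed start. By gene, 28 of the 31 held it at 1 listed start or more, against 41.5% of all genes. A match is a run of letters, not a shown binding site.

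Glucose uptake was the step at which both members were lower. Slc2a1 encodes GLUT1, the widely expressed facilitative glucose transporter. Its brightest probe set read 817 with vehicle and 403 with ulipristal, 2.03-fold lower (log2 ratio -1.02, rank 171 from the lowest of 11365 measured genes). The next probe set read 597 and 308, 1.94-fold lower. The third read 282 and 225, 1.26-fold lower. All 3 were lower, but they spread over 0.69 on the log2 scale, and the median of the 3 does not reach 2-fold. Slc2a3 encodes GLUT3, a transporter of high affinity for glucose. It read 287 with vehicle and 201 with ulipristal on its brightest probe set (log2 ratio -0.52) and 114 and 103 on the second (-0.14). Both of these probe sets can bind several transcripts, and the remaining pair was too dim to measure, with signals from 2.59 to 9.45.

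Hexokinases trap glucose in the cell by phosphorylation, and the 2 members differed in direction. Hk1, the isoform of most tissues, read 310.2 and 368 (log2 ratio 0.25). A dimmer Hk1 probe set, below the filter, read 19 and 44.6 (log2 ratio 1.23). Hk2, the inducible isoform, read 472 with vehicle and 384 with ulipristal (-0.30). The shift of Hk1 relative to Hk2 was 0.54 on the log2 scale. For comparison, the difference between the 2 brightest measured probe sets of the same gene had a root mean square of 0.47 over all genes.

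Phosphofructokinase commits fructose 6-phosphate to glycolysis, and the brightest probe set of each of its 3 isoform genes was higher after ulipristal. Pfkl, the liver type, read 96.3 with vehicle and 232 with ulipristal, 2.41-fold higher (log2 ratio 1.27, rank 162 from the highest). A second Pfkl probe set with much the same vehicle signal, 94.2, read 129 with ulipristal, 1.37-fold higher. The remaining one, below the filter, read 23.9 and 23.1. The 2-fold call for Pfkl therefore rests on 1 of its 3 probe sets. Pfkm, the muscle type, read 162 and 241 on its single probe set, 1.49-fold higher. Pfkp, the platelet type, read 516 and 633 on its brightest probe set (log2 ratio 0.29), but a dim one read 34.8 and 29.1 (-0.26), and another, below the filter, 20.9 and 34.1. Markers of skeletal muscle, the tissue typical of Pfkm, read 125 in sum with vehicle and 117 with ulipristal over the 2 of 6 that were measured, and Ckm, Mylpf, Tnnt3 and Myh4 lay below the filter.

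Pfkfb3 and Pfkfb4 make and degrade fructose 2,6-bisphosphate, the main activator of phosphofructokinase. Both differed by less than the spread between probe sets. Pfkfb3 read 438 with vehicle and 464 with ulipristal (log2 ratio 0.08), with a dim probe set at 18.4 and 12.8. Pfkfb4 read 172 and 186 (0.11).

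**Figure D3:**
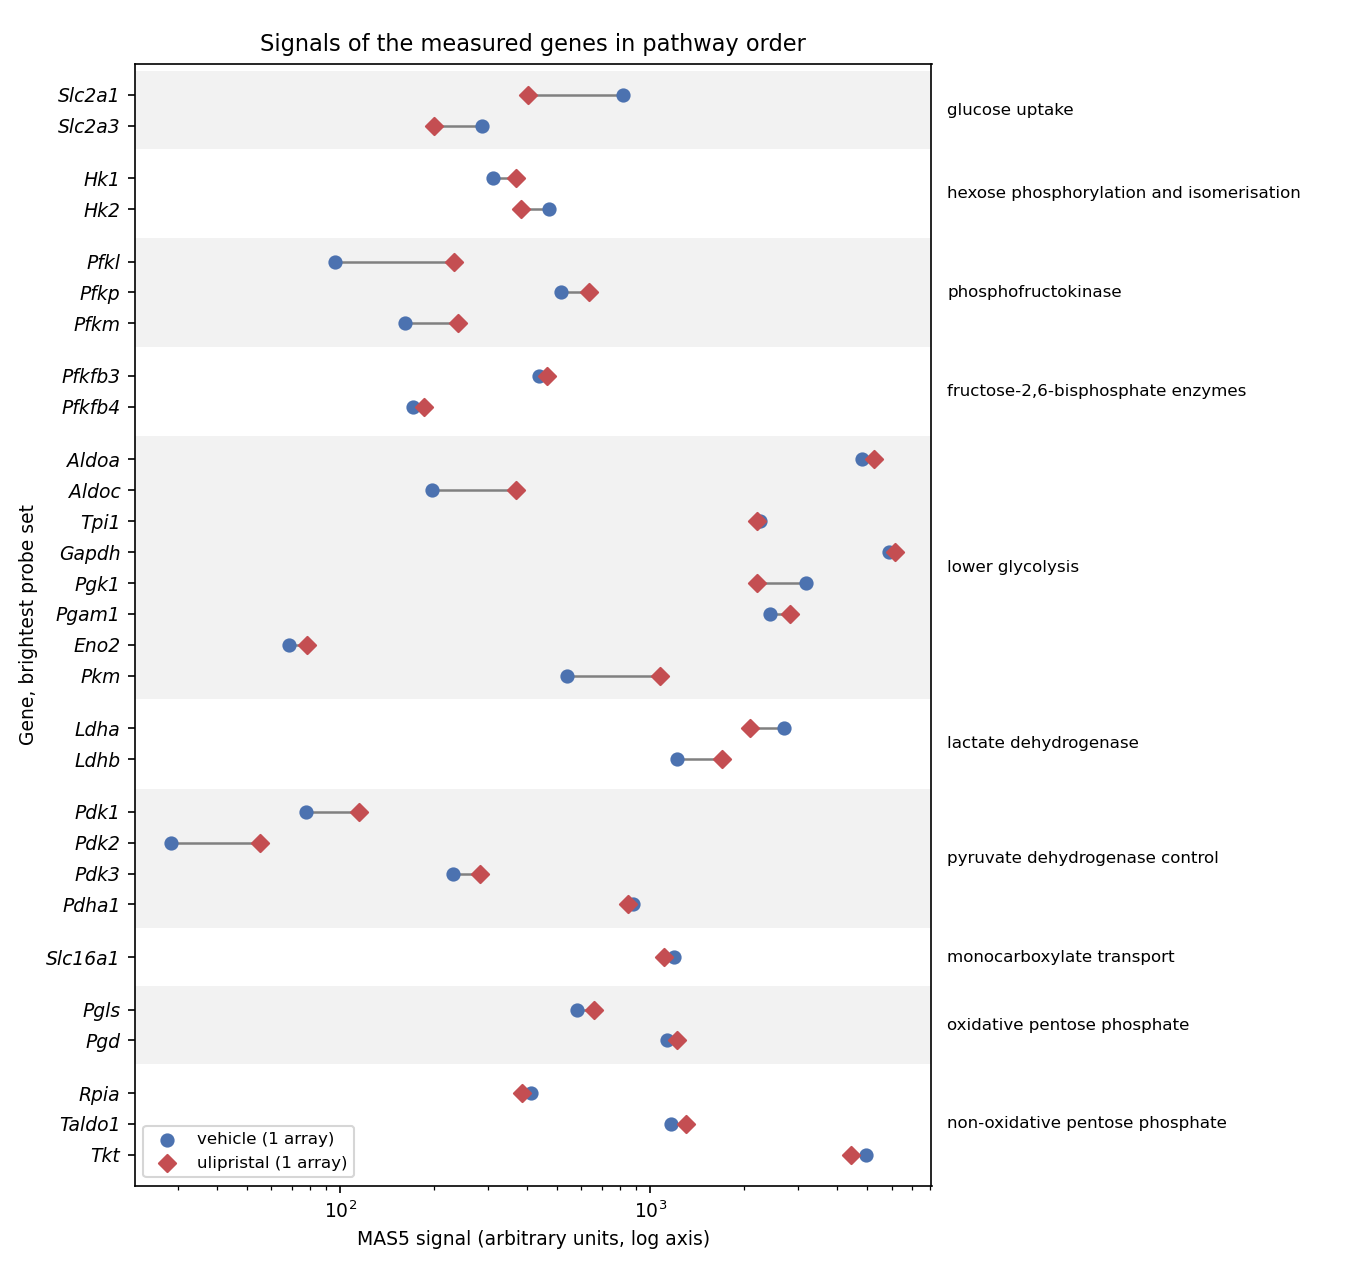
MAS5 signals (x axis, arbitrary units, log scale) of the brightest probe set of each measured gene (y axis, in pathway order), with blue circles for the vehicle array and red diamonds for the ulipristal array. The pairs stand farthest apart for Slc2a1 (817 and 403), Pfkl (96.3 and 232), Pkm (541 and 1073), Pdk2 (28.5 and 55.0) and Aldoc (197 and 369); levels of different genes cannot be compared on this scale.

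The second stage of glycolysis, from fructose 1,6-bisphosphate to pyruvate, held 8 members, of which 6 lay above 0 and 2 below, with a median log2 ratio of 0.16. Pkm, pyruvate kinase of muscle and most other tissues, read 541 with vehicle and 1073 with ulipristal, 1.98-fold higher, rank 390 from the highest. It had 1 probe set, which does not tell its M1 and M2 splice forms apart. Pgk1, phosphoglycerate kinase, the first ATP-yielding enzyme, was lower on all 3 probe sets. These read 3182 and 2213, 3056 and 2162, and 2122 and 758, the first of each pair being vehicle. The first and second agreed closely, with log2 ratios of -0.52 and -0.50, whereas the third gave -1.49. The first and the third are both of the class that can bind several transcripts. Pkm thus shifted by 1.51 on the log2 scale relative to Pgk1, or by 1.49 to 2.47 depending on the Pgk1 probe set. Pkm and Pgk1 were the highest and lowest of these 8 members, so their gap is the widest among them by choice of the pair.

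The 2 aldolases, which split fructose 1,6-bisphosphate, differed in size of change. Aldoc, the isoform best known from brain, read 197 with vehicle and 369 with ulipristal, 1.87-fold higher, while a second Aldoc probe set was dim on both arrays, at 9.83 and 9.68. Aldoa, the muscle and general isoform, read 4804 and 5261 on its brightest probe set (log2 ratio 0.13), and its 5 probe sets ran from -0.12 to 0.52, all of the class that can bind several transcripts. Neuron markers other than Snap25 went both ways: Syt1 read 62.2 and 91.1, Rbfox3 40.6 and 35.6, and Uchl1 168 and 235, while Snap25, a known target of the progesterone receptor in granulosa cells, read 144 and then 2.47, which is below the floor of 7.17.

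Other enzymes of this stretch stayed near their vehicle level, but Gapdh did so on only 1 of its 3 probe sets. Tpi1, triose phosphate isomerase, read 2253 and 2208, with 3 probe sets from -0.18 to -0.03, and its ratio was above 0 under 2 of 10 alternative settings. Pgam1, phosphoglycerate mutase, read 2430 and 2818 (log2 ratio 0.21). Eno2, the neuronal type of enolase, read 68.2 and 78.0 (0.19). Gapdh, glyceraldehyde 3-phosphate dehydrogenase, was measured only by the array's 3 control probe sets, which tile its message from the 3′ to the 5′ end. The 3′ set read 5879 with vehicle and 6170 with ulipristal (log2 ratio 0.07), the middle set 4289 and 5914 (0.46) and the 5′ set 4882 and 7125 (0.55). The ratio of 3′ to 5′ signal was accordingly 1.204 with vehicle and 0.87 with ulipristal for Gapdh, and 2.40 and 1.87 for the control probe sets of beta-actin. These ratios track how far labelled RNA reaches toward the 5′ end, and they differed between the arrays. Their part in the values of the other genes was not tested.

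At the branch between lactate and mitochondrial oxidation, the lactate dehydrogenase subunits lay on opposite sides of 0. Ldha, the subunit typical of glycolytic tissue, read 2693 with vehicle and 2097 with ulipristal on its single probe set (log2 ratio -0.36). Ldhb, the subunit typical of oxidative tissue, read 1222 and 1708 on its brightest probe set (0.48). The other Ldhb probe sets read 1128 and 1696, 1244 and 1482, and 1322 and 1346. All 4 were above 0, from 0.03 to 0.59. The ratio of Ldha to Ldhb was thus lower with ulipristal by 0.84 on the log2 scale, and by 0.39 to 0.95 over the Ldhb probe sets. Relative values of this kind do not depend on a common scaling factor of the arrays.

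Pyruvate dehydrogenase kinases shut the entry of pyruvate into the citric acid cycle, and the brightest probe sets of the 3 kinases on the list were above 0. The fourth kinase gene, Pdk4, which is not on the list and is named after its values were seen, read 260.1 and 189 (log2 ratio -0.46). Pdk2, a widely expressed kinase, read 28.5 and 55.0 (1.93-fold). Its vehicle signal is below the filter of 30.8, so that it passed only through the ulipristal array, and with 50 added to every signal its log2 ratio was 0.42. Pdk3 read 232 and 281 (log2 ratio 0.28). Pdk1, a known HIF1 target, gave no settled direction: 77.7 and 115 on the brightest probe set (0.57), 88.7 and 66.7 on the second (-0.41) and 45.3 and 42.0 on the third (-0.11). Pdha1, the catalytic subunit that these kinases phosphorylate, read 880 with vehicle and 846 with ulipristal, and 144 and 138 on its other probe set (log2 ratios of -0.06 and -0.07).

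Lactate and pyruvate cross the cell membrane on monocarboxylate carriers. Slc16a1, which encodes MCT1, read 1197 and 1103 (log2 ratio -0.12). Slc16a3, which encodes the lactate exporter MCT4, was the member below the filter, at 11.7 with vehicle and 23.7 with ulipristal. The genes of both accessory proteins that take such carriers to the membrane were higher. Bsg, basigin, read 926 and 1835 (1.98-fold) on its 1 measured probe set, and Emb, embigin, read 448 and 890.2 (1.99-fold). A second Emb probe set gave a smaller log2 ratio of 0.62.

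The pentose phosphate members were among the least different. In the oxidative arm, which makes NADPH, Pgls (6-phosphogluconolactonase) read 580.3 and 657 (log2 ratio 0.18). Pgd (6-phosphogluconate dehydrogenase) read 1133 and 1221 on its brightest probe set (0.11), but its 4 probe sets ran from -0.60 to 0.50, the widest range of any member. In the non-oxidative arm, which interconverts sugars, Rpia (ribose 5-phosphate isomerase) read 412 and 386 (-0.09) and Taldo1 (transaldolase) 1169 and 1308 (0.16). Tkt (transketolase) read 4980.1 and 4445 on its brightest probe set (-0.16) and 838 and 1168 on another (0.48), so that its direction depends on the probe set, and it was 0.01 with quantile normalization.

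The ratios of all genes shifted with signal level. Among all measured genes the median log2 ratio was 0.25 in the lowest quartile of signal and -0.07 in the highest. The 16 members in the highest quartile had a median of 0.09 and the 3 in the lowest 0.57. Slc2a1 and Pkm lie in the highest quartile, where 2.04% of genes were lower and 0.633% higher by at least 2-fold. Pfkl lies in the second-lowest quartile, where 2.53% were at least 2-fold higher, and Pdk2 in the lowest, where 9.61% were.

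Genes around these pathways were compared through 8 lists, which held 92 further measured genes. Past 2-fold were 3 lower ones and 0 higher ones (1.56% and 3.34% of all genes), and their median log2 ratio was 0.05. Ldhd, the mitochondrial D-lactate dehydrogenase, read 262 and 105, 2.49-fold lower. Its log2 ratio was -1.32 on the brighter probe set and -1.15 on the other. The other 11 measured genes of the remaining glucose transport and glycolysis list differed by less than 2-fold, and the list had a median of -0.01. In the list for UDP-sugars, which feed hyaluronan, 8 of 9 genes lay below 0 with a median of -0.20. Of all measured genes, 60% lay above 0. The list also held Ogt (0.45) and Oga (-0.07), which attach a sugar to proteins and remove it, and do not make UDP-sugars. Gfpt1 and Oga each had another probe set above 0 (0.12 and 0.49). Gfpt2, a rate-limiting enzyme of hexosamine synthesis, read 265 and 137 (1.93-fold lower) and Ugdh, which makes UDP-glucuronate, 1348 and 985. Has2, a hyaluronan synthase that uses UDP-sugars, read 58.0 and 18.8, and passed the filter only through the vehicle array. The 6 marker genes of cumulus expansion, of which Has2 is a small part by signal, summed to 11809.6 and 2277, and 5 of the 6 were past 2-fold on the lower side. In glycogen and glucose synthesis, 10 of 12 genes lay above 0, with a median of 0.29 and none past 1.5-fold, led by Pgm1, phosphoglucomutase (179 and 264), and Pygb, a glycogen phosphorylase (347 and 509.7). In the citric acid cycle 8 of 17 lay above 0 with a median of -0.01. The largest ratios were those of Ogdh, a subunit of 2-oxoglutarate dehydrogenase (371 and 652), and Sdhc, a subunit of succinate dehydrogenase (632 and 906). The pyruvate entry list had a median of 0.18 over 15 genes, and the remaining pentose phosphate and NADPH genes one of -0.24 over 6, with H6pd, the glucose 6-phosphate dehydrogenase of the endoplasmic reticulum, at 602 and 384 and Rpe, an epimerase of the non-oxidative arm, at 592 and 414.

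Regulators were split, with a median of 0.49 over 9 genes. The transcription factors Hif1a (4546 and 3019), Epas1 (3028 and 2174) and Myc (737 and 516) were 1.51-fold, 1.39-fold and 1.43-fold lower. The lowest of 3 Hif1a probe sets had a log2 ratio of -1.08 and the lower of 2 Epas1 ones -1.16, both past 2-fold. Hif1a, Epas1 and Myc are named as the 3 of 9 below 0, after their values were seen. At least 1.5-fold higher were 12.3% of all measured genes and 4 of the other 6 regulators, all of which lay above 0. They included Arnt, the DNA-binding partner of Hif1a and Epas1 (267 and 429.6, 1.61-fold, with a second probe set at a log2 ratio of 0.01, also named after its values were seen), the carbohydrate-sensing factor Mlxipl (107 and 195), and Vhl, which marks HIF proteins for destruction (121 and 198). Of 12 measured hypoxia-response genes outside glycolysis, 2 lay past 2-fold on the lower side, Ndrg1 (598 and 243) and Egln3 (116 and 50.1), and 0 on the upper side. The list had a median of -0.23.

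**Figure D4:**
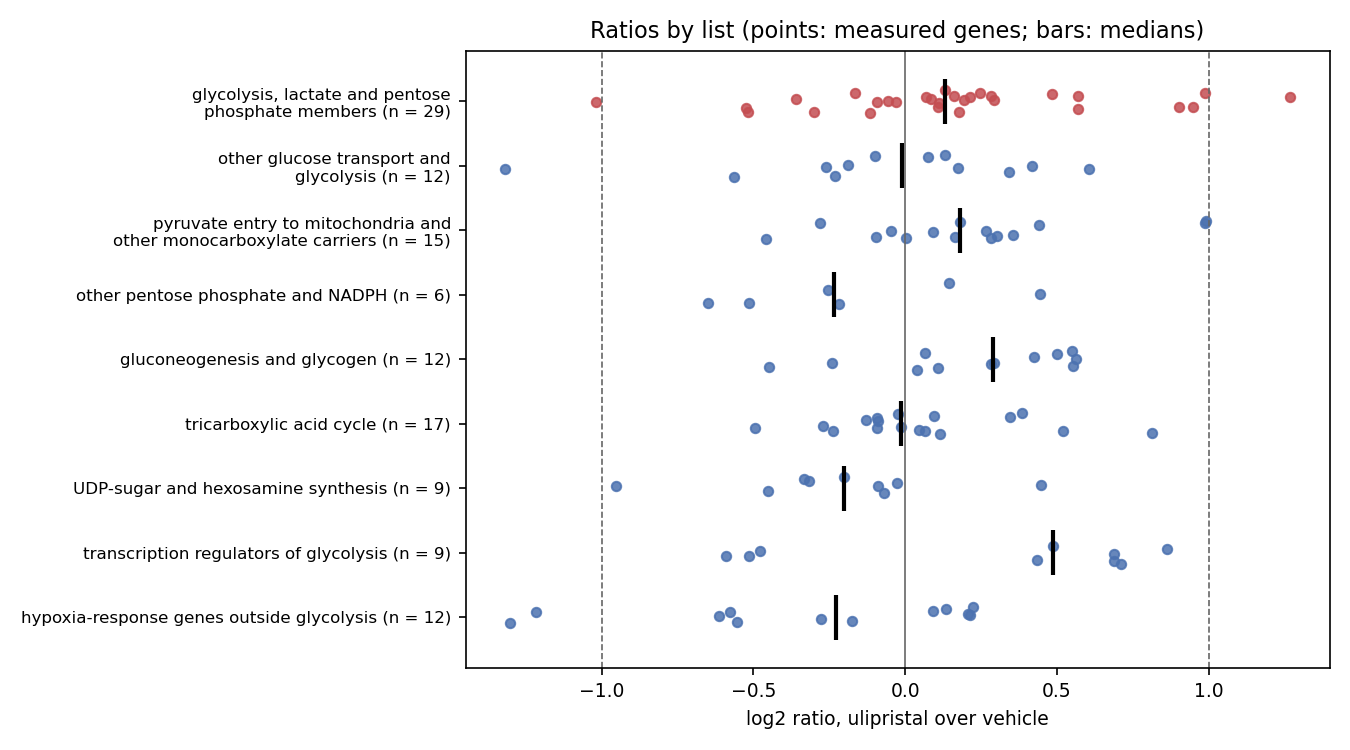
Log2 ratios of ulipristal over vehicle (x axis) of the measured genes of each list (rows), with 1 point per gene, black bars for medians and dashed lines at 2-fold. The glycolysis, lactate and pentose phosphate members (red) have a median of 0.13, and the genes past the dashed lines in the other lists are Ldhd, Ndrg1 and Egln3, all on the lower side.

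All 7 defining markers of the ovary passed the filter, Amh only through the vehicle array (48.7, against 30.1 with ulipristal). Summed markers of several cell types differed between the arrays. At least 2-fold higher were 3.34% of all measured genes and 5 of 10 granulosa markers. The summed signal of the granulosa markers was 12831 with vehicle and 17300 with ulipristal. Oviduct epithelium markers, 6 of 7 measured, read 3825 and 6122 in sum with 5 at least 2-fold higher. Among these 5, Foxj1 (19.1 and 75.1) and Ccdc39 (27.4 and 72.9) passed the filter only through the ulipristal array. Most of the sum was Ovgp1 (3641 and 5642), which was 1.55-fold higher and is not among the 5. Adipocyte markers read 1937 and 2661 over 4 of 6, with Lep below the filter. Cidec (28.7 and 67.9), 1 of the 4, passed it only through the ulipristal array. Red cell markers, cells that live on glycolysis, read 162 and 174 over the 2 of 7 that were measured. Macrophage markers read 1045 and 1248 over 6 of 6, and neutrophil markers 416 and 289 over 3 of 6, where S100a8 and S100a9 were lower (log2 ratios of -1.46 and -1.88) and Ltf was higher (64.3 and 175). The array's control features for 18S ribosomal RNA were 2.41-fold and its poly-A spikes 1.48-fold brighter on the vehicle array (medians). The part of any of these in the values above was not tested.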

How the data were processed

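Total RNA from whole ovaries was hybridised to Affymetrix Mouse Genome 430 2.0 arrays, 1 per treatment. Groups follow the treatment label of each sample. The authors deposited linear MAS5 intensities, 1 per probe set; per the submitters' processing notes the tools were MAS5 and Affymetrix Expression Console, version 1. With the extreme 2% at either end left out, the mean was 150.001 on both arrays. The deposited intensities were thus scaled to a common level, which hides any shift that most genes share. The number of arrays limits the precision. No genome build for the files is given in the sources used here.

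Of 45101 probe sets, 34958 named 1 gene (13 of them array controls, among these the 3 for Gapdh), 932 several and 9160 none, and 51 were unnamed controls. All 30 members with a probe set were found by gene identifier in the RefSeq gene table, with 0 symbols differing. Signals under the 25th percentile of non-control values (7.17) were set to it, log2 was taken, and vehicle was subtracted from ulipristal. A probe set was measured where its mean log2 signal reached the median (30.8 as a signal). The brightest measured probe set stood for a gene, called at 2-fold. The steps were tested on simulated arrays with little noise and changes of 3-fold or more. That test does not cover calls near 2-fold. Software was Python 3.11.15 with pandas 2.3.3, numpy 2.4.6, matplotlib 3.10.9 and statsmodels 0.14.6.

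The members, gene lists and thresholds were chosen with earlier results of these data known. All members are named. Of each other pathway list, the genes past 2-fold are named, or else the 2 with the largest ratios. Other settings were each tried by themselves. The log2 ratios were centred on their median over measured probe sets, quantile normalization was used, or lowess of the ratios against signal (fraction 0.3). The floor was left out or set at the 50th percentile, and the filter was left out or set at the 75th percentile. In place of the floor, 50 was added to all signals. A gene's median over its probe sets stood for it. Only probe sets without s or x in their ID were kept, the letters of those that can bind several transcripts. Calls were made at 1.5-fold or 3-fold.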

Additional observations from a re-analysis of the deposited data

How the results depend on the processing

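The median log2 ratio of the members stayed between 0.07 and 0.20 under 10 alternatives. The count of members at least 2-fold higher, 1 in the report, became 2 with quantile normalization and likewise 2 with lowess centring (Pfkl and Pkm both times), 2 with no filter (Pfkl and Slc16a3), 0 with the filter at the 75th percentile, 0 with 50 added to every signal and 0 with the median over probe sets. It was 4 at 1.5-fold and 0 at 3-fold. The count at least 2-fold lower, also 1, was 0 with 50 added, 0 with the median over probe sets and 0 at 3-fold. Pfkl reached 2-fold under 7 of 9 alternatives (log2 ratios from 0.86 to 1.27), Slc2a1 under 8 of 10 (-1.08 to -0.94) and Pkm under 2 of 10 (0.93 to 1.03). Of 284 member values under alternatives, 278 moved by less than 0.34, the standard deviation of a probe set's log2 ratio within a gene. That value was taken from the 2 brightest measured probe sets of each gene. With no floor, no filter or the filter at the 75th percentile, every member kept had the same log2 ratio as in the report. The floor at the 50th percentile changed only Pdk2. Genes with 1 measured probe set could not change when the median over probe sets was taken. These settings count among the alternatives, so the counts of unmoved values, directions and 2-fold calls overstate what was tested. Throughout, 26 of 29 genes kept their direction. Tkt, Tpi1 and Pdk1 changed direction under 3, 2 and 1 alternatives. Apart from the counts set by a threshold or a filter, the cause was not tested. The share of called genes that were higher, 68.2% over all measured genes, was 57.3% with quantile normalization, 56.2% with lowess centring, 36.5% with the higher filter and 35.5% with 50 added. No paired analysis was possible because each treatment has 1 array. That number of arrays, and the low signal of Pdk2 and Slc16a3, limit what these data can resolve.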
